A study of Arabidopsis thaliana with 45 samples.

Results

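The genes of the mitochondrial genome of Arabidopsis were taken as every row of the deposited count tables whose identifier begins with ATMG, which gave 129 of 28545 genes. Of these, 3 encode ribosomal RNA, 18 encode transfer RNA and 108 are listed as protein-coding. Among the protein-coding members, 37 have a known role and 71 are open reading frames (ORFs) of no known function. All 129 had at least 1 count in the series, but only 18 of the 108 protein-coding members had counts in all 45 libraries and 30 averaged at least 1 CPM (counts divided by the library total and multiplied by 1000000).

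The libraries came from Col-0 seedlings 7 days old, grown in continuous light (24 h per day) apart from 8 h of dark storage on day 3, and sealed in Kennedy Space Center Fixation Tubes (KFTs), closed vessels in which plants are held and then fixed. In the time course, roots (R) and leaves (L) were fixed, by the labels, after 4 h in a KFT (Q1), which the study's methods place slightly earlier, and after a further 14 min (Q2), 18 min (Q3) or 28 min (Q4), and a clinostat group (C) was turned at 1 rpm for 4 min after the same 14 min of waiting. A second set held roots from 4 KFTs (Q1A to Q1D), also labelled 4 h, and from a Petri plate (Q1P). Every one of the 15 groups had 3 libraries of 2 pooled plants each, and the 3 libraries of a group shared a KFT or plate, so that time and vessel cannot be told apart and p-values measure the spread among plants of a vessel.

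Plant mitochondria keep a small genome of their own that encodes some subunits of the respiratory chain and of ATP synthase, parts of the cytochrome c maturation pathway, some ribosomal proteins, and ribosomal and transfer RNAs. All other mitochondrial proteins, including the RNA polymerases and nucleases that make and degrade these transcripts, come from nuclear genes. Unlike nuclear messenger RNA, most mature plant mitochondrial RNA carries no stable poly(A) tail, and a tail there marks RNA for decay. The libraries were made from poly(A)-selected RNA, so the values are levels of the RNA that passed this selection, and the part that selection played was not tested. In bulk tissue, fewer cells of a type and less RNA per cell cannot be told apart.

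Arabidopsis chromosome 2 carries a long nuclear copy of mitochondrial DNA. In the RefSeq genome (TAIR10.1), 72.3% of the 367808 bases of the mitochondrial genome lay in exact matches of at least 150 bases to chromosome 2, and 30 of the 36 RefSeq mitochondrial genes with a ribosomal RNA or protein product could be matched by symbol to a member. The authors counted uniquely mapped reads, and a read from a stretch that is identical in both places has no unique position. The first 60 coding bases of 3 genes are shown because they span this range (first codon in capitals, RefSeq TAIR10.1, 5′ to 3′ on the coding strand). The first is cox1 (MT:116286-116345, minus strand), with no exact match in chromosome 2. The others are atp9 (MT:271126-271185, minus strand) with its copy inside AT2G07671 (chr2:3252021-3252080, minus strand) and cob (MT:182799-182858, minus strand) with its copy inside AT2G07727 (chr2:3450863-3450922, plus strand).
cox1: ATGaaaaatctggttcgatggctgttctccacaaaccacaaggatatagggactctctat
atp9: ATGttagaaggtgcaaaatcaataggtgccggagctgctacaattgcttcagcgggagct
atp9 copy: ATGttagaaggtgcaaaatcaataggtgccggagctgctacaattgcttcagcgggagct
cob: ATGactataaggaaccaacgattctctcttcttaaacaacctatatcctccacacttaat
cob copy: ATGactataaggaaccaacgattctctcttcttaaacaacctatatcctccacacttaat

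The levels per length differed along this division of the genome. The 8 protein genes with less than 50% of their exonic bases in the chromosome 2 copy (ATP4, CCMB, COX1, COX2, NAD4L, NAD9, RPL16 and RPS3) had 3.46 to 23.4 CPM per kb of exon over the 45 libraries, with a median of 8.49. The 19 with more than 90% in the copy ranged from 0.0006 to 13.7 CPM per kb, with a median of 0.50, and 6 of them (COB, NAD4, NAD6, RPL5, RPS4 and RPS7) were under 0.1. COB, the cytochrome b subunit of complex III, had 2 counts in all 45 libraries together. RPS4, a protein of the small ribosomal subunit, had 54, NAD4, a complex I subunit, had 158, and MTTB, a transport protein, had 269. The counts of a copied gene hold only its uniquely placed reads, and no fold change of COB, NAD4 or RPS4 is given. The authors' mitochondrial sequence was not compared with RefSeq base by base, so the percentages are those of the RefSeq assembly.

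**Figure D1:**
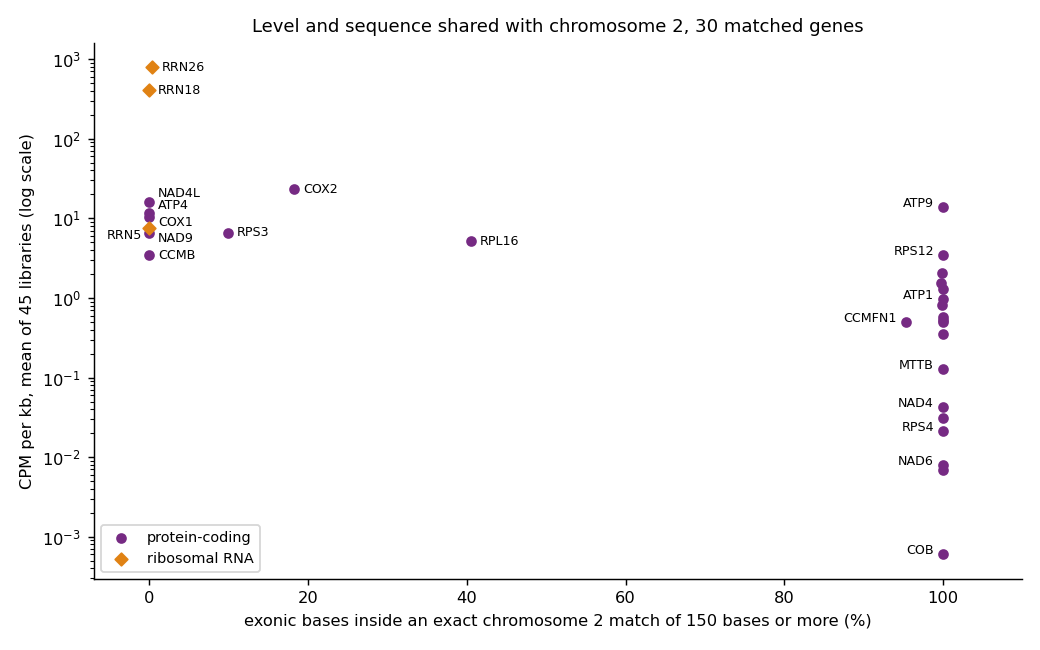
Mean CPM per kb of exon over 45 libraries (vertical axis, log scale) against the percentage of exonic bases inside an exact chromosome 2 match of at least 150 bases, for the 30 genes matched to RefSeq (circles protein-coding, diamonds ribosomal RNA). Genes at the left, such as COX2 at 23.4 CPM per kb, sit above most genes at the right, where ATP9 at 13.7 is the highest and COB at 0.0006 the lowest.

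The 3 ribosomal RNA genes took 89.8% of all mitochondrial counts, the protein-coding members 10.1% and the 18 transfer RNA genes 0.0499%. Per kb of exon, RRN26, the large-subunit ribosomal RNA, was highest at 795 CPM, followed by RRN18, the small-subunit ribosomal RNA, at 405. The highest protein gene was COX2, a subunit of cytochrome c oxidase, at 23.4 CPM per kb, followed by NAD4L of complex I at 15.8, ATP9, the ring subunit of ATP synthase, at 13.7, ATP4, a stator subunit, at 11.7, and COX1, the catalytic core of cytochrome c oxidase, at 10.3. ORFs took 7.61% of mitochondrial counts against 2.51% for the genes with a role, and ORF107A alone reached 940 CPM in a Q4R root library. RRN5, the 5S ribosomal RNA, stood at 7.50 CPM per kb, far under its larger partners.

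Total counts ranged from 29203427 to 117091661 per library with a median of 50467925. The labelled tissues matched their markers: 7 photosynthesis genes summed to 39641 to 59050 CPM in leaves and to 177 to 598 CPM in time-course roots, while 8 root genes summed to 584 to 932 CPM in those roots and to 0.788 to 34.1 CPM in leaves. Q4L replicate 1 stood apart, with the lowest total count of the series, a source name that says Q3 where the title says Q4, and the 0.788 CPM of root genes against 22.8 and 28.2 in its partners. In that library COX1 was at 1.78 CPM against 15.4 and 15.8, COX2 at 1.03 against 16.6 and 15.4, and NAD4L at 0 against 5.33 and 6.50, while RRN26 was at 444 against 613 and 555. Counts and tests on Q4L are given with and without it.

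Levels in the time-course roots fell into 2 ranges that did not follow the order of time. Summed over the 3 ribosomal RNA genes, Q1R stood at 1840, 2184 and 2373 CPM (replicates 1, 2 and 3 here and in all later triplets). Q2R stood at 13701, 9182 and 9558 CPM. Q3R stood at 2136, 2719 and 2501 CPM, and Q4R at 16448, 8879 and 8919 CPM. Every Q2R and Q4R library was above every Q1R and Q3R library, and the clinostat roots, at 2646, 2818 and 2928 CPM, overlapped the upper Q3R values.

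The protein-coding members showed the same order. Their sum was 125, 210 and 206 CPM in Q1R and 1468, 893 and 974 CPM in Q2R. It was 224, 270 and 221 CPM in Q3R and 1484, 845 and 822 CPM in Q4R. The clinostat roots stood at 230, 286 and 316 CPM. A single frame, ORF107A, held most of this sum in Q1R, Q2R, Q3R and clinostat roots. For the 37 genes with a role, the means of Q2R, Q3R, Q4R and clinostat roots were 5.96, 0.92, 5.60 and 1.01 times that of Q1R. For the ORFs these ratios were 6.24, 1.48, 5.90 and 1.75. Mitochondrial genes held at most 0.325% of counts in any Q1R, Q3R or clinostat root library and 0.972% to 1.79% in the Q2R and Q4R libraries. Replicate 1 was the highest library in both Q2R and Q4R and the lowest in Q1R.

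**Figure D2:**
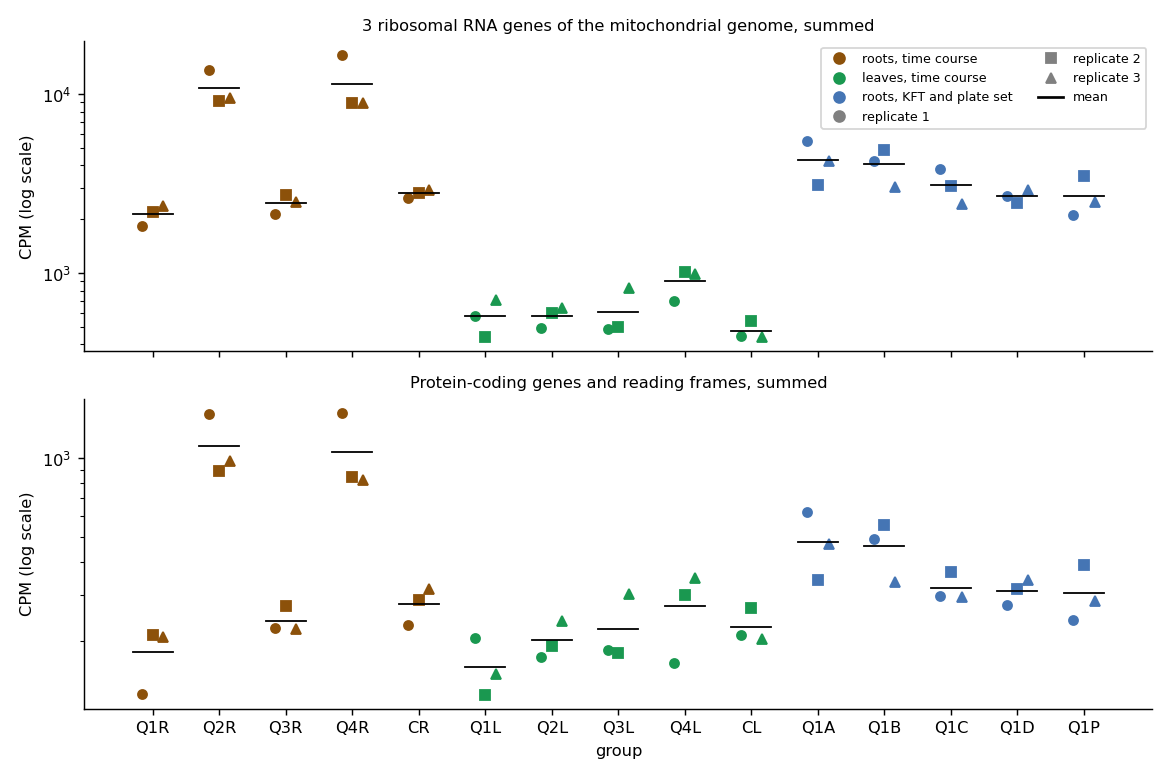
Summed CPM (log scale) of the 3 ribosomal RNA genes (top) and of the 108 protein-coding members (bottom) in every library, by group, with symbols for the 3 replicates and a bar at the mean. The Q2R and Q4R libraries lie between 8879 and 16448 CPM for ribosomal RNA and between 822 and 1484 CPM for protein-coding members, above every other library of the series.

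Sums of other gene classes moved less, apart from genes inside the chromosome 2 copy. The ratio of the Q2R mean to the Q1R mean was 5.07 for mitochondrial ribosomal RNA and 6.16 for protein-coding members, but 1.61 for transfer RNA. It was 1.78 for plastid genes other than ribosomal RNA, 0.97 for plastid ribosomal RNA, 1.44 for nuclear-encoded ribosomal RNA, 0.79 for the leaf markers and 0.87 for the root markers. For Q4R against Q1R the ratios were 5.35, 5.82 and 1.41 for the 3 mitochondrial classes, 1.01 for plastid genes other than ribosomal RNA, 0.49 for plastid ribosomal RNA, 1.23 for nuclear-encoded ribosomal RNA, 0.58 for leaf markers and 0.76 for root markers. RNA quality of the libraries was not tested.

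The question of the time course was how transcripts changed while plants waited in the KFT. In Q2R against Q1R, 16 of the 59 mitochondrial genes tested rose and none fell (edgeR quasi-likelihood test, Benjamini-Hochberg adjusted p at most 0.05 over all 21189 genes tested), beside 0.321% of all genes tested that rose and 0.0425% that fell. The genes that rose were 9 of the 37 with a role, 5 of the 71 ORFs and 2 of the 3 ribosomal RNA genes. Genes must reach a minimum count in 3 libraries to be tested, which a gene that is high in only 1 group can do through that group, so the counts were repeated on every gene with a count. There 22 of 112 members rose, beside 0.669% of all genes. All 3 Q2R libraries were above all 3 Q1R libraries for 52 of these 112 members and below them for none, against 6.73% of all genes above and 9.67% below.

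Leaving out Q2R replicate 1 gave 9 genes that rose, and leaving out Q1R replicate 3 or Q2R replicate 2 gave 10. RRN26, RRN18, COX1, ATP9, ATP4, NAD4L, ORF240A and ORF107A were called in all 6 fits that left out a library. DESeq2 called 26 of 84 members with an adjusted p, all higher, beside 1.65% of all genes.

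The ribosomal RNAs are the backbone of the mitochondrial ribosome. RRN26 stood at 1522, 1550 and 1731 CPM in Q1R and at 10134, 6816 and 6477 CPM in Q2R, a log2 fold change of 2.33 (SE 0.15, n = 3 and 3, edgeR adjusted p = 0.000166). RRN18 stood at 317, 633 and 642 CPM in Q1R and at 3565, 2364 and 3079 CPM in Q2R, a log2 fold change of 2.54 (SE 0.24, edgeR adjusted p = 0.000933). No Q1R value overlapped Q2R for either gene. RRN5 was at 0.555, 0.320 and 0.123 CPM in Q1R and at 1.52, 1.11 and 2.05 CPM in Q2R, also without overlap, but its difference did not pass the test. The ratio of RRN26 to RRN18 within a library was 2.1 to 2.88 in Q2R and 2.45 to 4.80 in Q1R, ranges that overlap.

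Cytochrome c oxidase (complex IV) passes electrons to oxygen at the end of the respiratory chain, and 2 of its 3 mitochondrial subunits rose. COX1 was at 4.95, 10.1 and 9.06 CPM in Q1R and at 81.8, 54.4 and 48.4 CPM in Q2R, a log2 fold change of 2.97 (SE 0.27, edgeR adjusted p = 0.000932). COX2 was at 3.65, 15.0 and 11.9 CPM in Q1R and at 120, 64.7 and 68.3 CPM in Q2R, a log2 fold change of 3.08 (SE 0.42, edgeR adjusted p = 0.0131). In both genes even the lowest Q2R library lay several-fold above the highest Q1R library. COX3, wholly inside the chromosome 2 copy, was at 0.258, 0.291 and 0.110 CPM in Q1R and at 1.42, 0.793 and 1.24 CPM in Q2R, and its log2 difference of 2.43 (SE 0.89) had an edgeR adjusted p of 0.335.

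ATP synthase makes ATP from the proton gradient, and 4 of its 6 listed genes rose in Q2R. ATP9 went from 1.11, 1.46 and 1.58 CPM to 15.4, 10.6 and 11.7 CPM (log2 fold change 3.22, SE 0.26, edgeR adjusted p = 0.000581). ATP4 went from 2.79, 4.10 and 5.22 CPM to 33.8, 25.6 and 22.6 CPM (log2 fold change 2.79, SE 0.24, edgeR adjusted p = 0.000810). ATP1, the alpha subunit of the catalytic head, went from 1.01, 1.41 and 1.32 CPM to 5.82, 4.69 and 4.22 CPM (log2 fold change 2.02, SE 0.34, edgeR adjusted p = 0.0360). The triplets of each of these genes were far apart. ATP6-2, a proton channel subunit, rose from 1.72, 2.63 and 2.26 CPM to 14.0, 10.4 and 4.64 CPM (log2 fold change 2.18, SE 0.38, edgeR adjusted p = 0.0385), and its counts are uncertain because a second gene, ATP6-1, shares part of its sequence. ATP8 was at 0.475, 1.14 and 0.493 CPM in Q1R and at 2.79, 1.38 and 0.823 CPM in Q2R, which overlap.

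Complex I takes electrons from NADH, and 14 members carry its subunits or parts of them. Only NAD4L passed in Q2R against Q1R, from 1.68, 4.12 and 3.44 CPM to 23.8, 17.8 and 15.8 CPM (log2 fold change 2.67, SE 0.30, edgeR adjusted p = 0.00322). NAD1C, a part of the split nad1 gene, was at 0.218, 1.22 and 3.21 CPM in Q1R and at 19.3, 11.9 and 12.6 CPM in Q2R, and did not pass (edgeR adjusted p = 0.0615). Q1R itself varied widely for this gene, with replicate 1 near 0. NAD9, which lies outside the chromosome 2 copy, was at 2.52, 3.32 and 1.80 CPM in Q1R and at 6.70, 4.50 and 5.04 CPM in Q2R, a log2 difference of 1.13 (SE 0.32, edgeR adjusted p = 0.211). Its triplets did not overlap, but the step was smaller than that of COX1 or NAD4L.

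Of the 7 ribosomal protein genes, RPS3 and RPL2 rose in Q2R. RPS3, of the small subunit, went from 1.74, 5.34 and 3.22 CPM to 20.1, 15.7 and 12.8 CPM (log2 fold change 2.27, SE 0.35, edgeR adjusted p = 0.0228). RPL2, of the large subunit, went from 0.733, 0.640 and 0.781 CPM to 5.44, 2.91 and 3.94 CPM (log2 fold change 2.55, SE 0.42, edgeR adjusted p = 0.0338). RPL16, whose start overlaps the end of RPS3 in RefSeq, was at 1.88, 1.59 and 0.946 CPM in Q1R and at 5.03, 3.85 and 4.19 CPM in Q2R, with a log2 difference of 1.61 (SE 0.38) and an edgeR adjusted p of 0.135. Reads in the overlap of RPS3 and RPL16 cannot be told apart, and whether the authors counted by strand was not given in the sources used here.

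None of the 4 cytochrome c maturation genes, which attach heme to cytochrome c, passed the test. CCMB was at 0.436, 1.76 and 0.905 CPM in Q1R and at 3.65, 3.50 and 2.93 CPM in Q2R (log2 difference 1.74, SE 0.53, edgeR adjusted p = 0.237). MATR, an intron maturase, was at 1.29, 2.74 and 1.59 CPM in Q1R and at 4.70, 3.30 and 1.78 CPM in Q2R (log2 difference 0.84, SE 0.47, edgeR adjusted p = 0.555). CCMB was apart in every library, while MATR overlapped between the groups. MTTB was at 0.375 CPM or lower in all 6 libraries.

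Among the ORFs, the greatest fold changes that passed belonged to low-level frames. ORF262 went from 0, 0.466 and 0.809 CPM to 14.0, 6.92 and 6.61 CPM (log2 fold change 4.42, SE 0.76, edgeR adjusted p = 0.0361). ORF294 went from 0.178, 0.218 and 0.973 CPM to 12.3, 7.01 and 7.90 CPM (log2 fold change 4.31, SE 0.58, edgeR adjusted p = 0.0116). The most abundant, ORF107A, went from 77.5, 113 and 132 CPM to 904, 533 and 622 CPM (log2 fold change 2.71, SE 0.22, edgeR adjusted p = 0.000581). All 3 frames were higher in every Q2R library than in any Q1R library, as was ORF240A, which rose by 3.61 on the log2 scale (SE 0.34, edgeR adjusted p = 0.000933). Of the 18 transfer RNA genes, 3 could be tested and none passed, at log2 differences between -0.46 and 1.05.

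**Figure D3:**
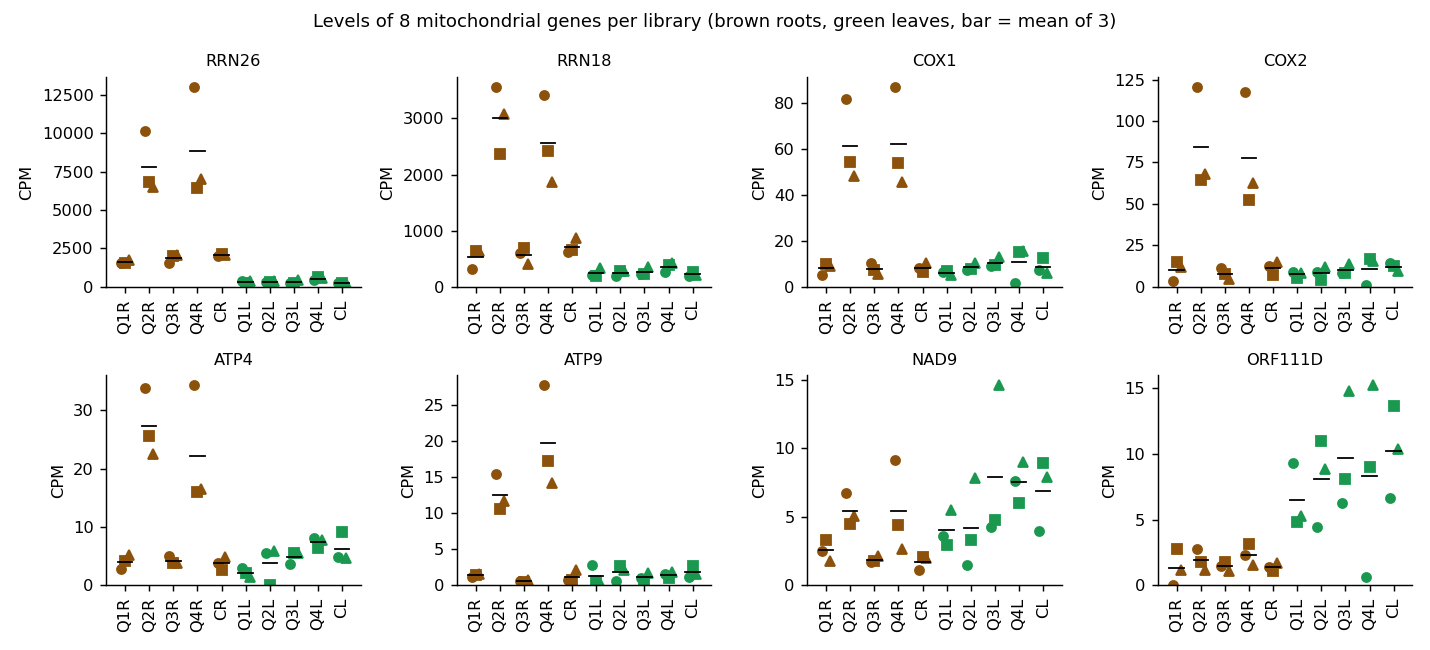
CPM of 8 mitochondrial genes in each time-course library (brown roots, green leaves, circle, square and triangle for replicates 1, 2 and 3, bar at the mean of 3). RRN26, RRN18, COX1, COX2, ATP4 and ATP9 are high in Q2R and Q4R roots only, for example COX1 at 45.6 to 87.2 CPM, while NAD9 differs less between the groups and ORF111D is higher in leaves.

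In Q4R against Q1R, 16 of the 51 members tested rose and none fell, beside 0.516% of all genes tested that rose and 0.397% that fell. They were 8 of the 37 genes with a role, 6 of the 71 ORFs and 2 of the 3 ribosomal RNA genes. On every gene with a count, 19 of 94 members rose, beside 1.13% of all genes. All 3 Q4R libraries were above all 3 Q1R libraries for 36 of these 94 members and below them for none, against 5.04% of all genes above and 10.3% below. Fits without any 1 library gave 11 to 16 genes that rose. Q2R and Q4R were both compared with the same Q1R libraries, so their values are set side by side and not counted as separate evidence.

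ATP9 stood at 27.7, 17.2 and 14.2 CPM in Q4R, a log2 fold change of 3.89 over Q1R (SE 0.32, edgeR adjusted p = 0.000199). COX1 stood at 87.2, 53.8 and 45.6 CPM in Q4R, a log2 fold change of 3.01 (SE 0.29, edgeR adjusted p = 0.000243). RRN26 stood at 13027, 6452 and 7049 CPM in Q4R, a log2 fold change of 2.53 (SE 0.22, edgeR adjusted p = 0.000201). Replicate 1 was the highest in each gene. COX1 covered about the range of Q2R, while ATP9 was above every Q2R library in replicates 1 and 2, and RRN26 in replicate 1.

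Other members rose in Q4R from low levels in Q1R. NAD1C, at 20.9, 10.5 and 10.3 CPM, rose by a log2 fold change of 3.21 (SE 0.64, edgeR adjusted p = 0.0317), and ATP1, at 8.49, 7.03 and 4.97 CPM, by 2.51 (SE 0.40, edgeR adjusted p = 0.00817). ORF113 went from 1.09, 0.320 and 0.206 CPM to 4.89, 7.28 and 3.77 CPM (log2 fold change 3.37, SE 0.66, edgeR adjusted p = 0.0301). COX2 and ORF240A rose by 2.99 (SE 0.42, edgeR adjusted p = 0.00349) and 3.22 (SE 0.33, edgeR adjusted p = 0.000360), and RRN18 by 2.34 (SE 0.26, edgeR adjusted p = 0.000586) on the log2 scale. ORF262 and ORF294 rose by 4.40 (SE 0.80, edgeR adjusted p = 0.0207) and 4.27 (SE 0.60, edgeR adjusted p = 0.00366) on the log2 scale. NAD9, at 9.16, 4.42 and 2.64 CPM, overlapped Q1R (log2 difference 1.16, SE 0.48, edgeR adjusted p = 0.391). MATR, at 7.58, 1.06 and 2.75 CPM, also overlapped Q1R, with replicate 1 far above its partners.

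Between these 2 groups the Q3R libraries were near Q1R. Only ORF107A differed from Q1R, at 148, 199 and 164 CPM (log2 fold change 0.72, SE 0.18, edgeR adjusted p = 0.0418), 1 of 50 members tested, beside 2.75% of all genes that rose and 1.79% that fell. Of the 6 fits without a library, 4 called no member, those without Q1R replicate 1, Q1R replicate 2, Q3R replicate 2 or Q3R replicate 3, and that without Q3R replicate 1 called 2. RRN26 had a log2 difference of 0.30 (SE 0.12, edgeR adjusted p = 0.155), COX1 of 0.01 (SE 0.31, edgeR adjusted p = 0.992) and ATP9 of -1.15 (SE 0.84, edgeR adjusted p = 0.481). ATP9 was at 0.622, 0.411 and 0.761 CPM in Q3R, under every Q1R library.

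In Q3R against Q2R, the groups only 4 min apart, 30 of 60 members fell and none rose, beside 6.28% of all genes that fell and 6.61% that rose. The 30 were 18 of the 37 genes with a role, 10 of the 71 ORFs and 2 of the 3 ribosomal RNA genes. On every gene with a count, 30 of 115 members fell, beside 6.03% of all genes. Without Q2R replicate 1 the count was 17. ATP9 fell by 4.39 on the log2 scale (SE 0.29, edgeR adjusted p = 0.000246), COX2 by 3.38 (SE 0.31, edgeR adjusted p = 0.000608) and ATP1 by 3.34 (SE 0.37, edgeR adjusted p = 0.00199). COX1 fell by 2.96 (SE 0.25, edgeR adjusted p = 0.000417), RRN26 by 2.03 (SE 0.18, edgeR adjusted p = 0.000450) and RRN18 by 2.40 (SE 0.20, edgeR adjusted p = 0.000398). The greatest folds were in 2 ORFs near 0 in Q3R. They met the count minimum only through Q2R, where they were high, so the size of these folds is not read further. ORF122C was at 0.440, 0.389 and 0.481 CPM in Q2R and at 0, 0.0111 and 0 CPM in Q3R, and ORF159 at 0.909, 0.548 and 0.434 CPM against 0, 0.0333 and 0 CPM. ORF240A and ORF294 fell by 3.42 and 3.08. NAD1C, NAD7, NAD1B and the nad5 parts NAD5A, NAD5B and NAD5C of complex I also fell, by log2 values between 1.76 for NAD7 and 3.88 for NAD5A. NAD9 fell by 1.52 (SE 0.28, edgeR adjusted p = 0.00998), RPL16 by 1.64 (SE 0.35, edgeR adjusted p = 0.0156) and CCMB by 1.42 (SE 0.39, edgeR adjusted p = 0.0369).

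In Q4R against Q3R, 17 of 52 members rose and none fell, beside 1.76% of all genes that rose and 1.02% that fell. The greatest were ATP9, by 5.08 on the log2 scale (SE 0.35, edgeR adjusted p = 7.8e-05), and ATP1, by 3.85 (SE 0.43, edgeR adjusted p = 0.00106), both wholly inside the chromosome 2 copy. COX2, ORF294, ORF240A, COX1, NAD1C and ORF262 rose by 2.75 to 3.30, RRN26 by 2.25 and RRN18 by 2.21. DESeq2 called 27 of 74 members higher, beside 3.75% of all genes. Over the 4 groups the direction of each step was therefore up, down and up for RRN26, RRN18, COX1, COX2, ATP1, ATP4, ATP9 and NAD4L, among others, with the test passed at each step. Adjacent steps share the libraries of a group, so they are not counted as separate evidence. The libraries of each group also shared a KFT, so change over time cannot be told apart from differences between vessels.

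**Figure D4:**
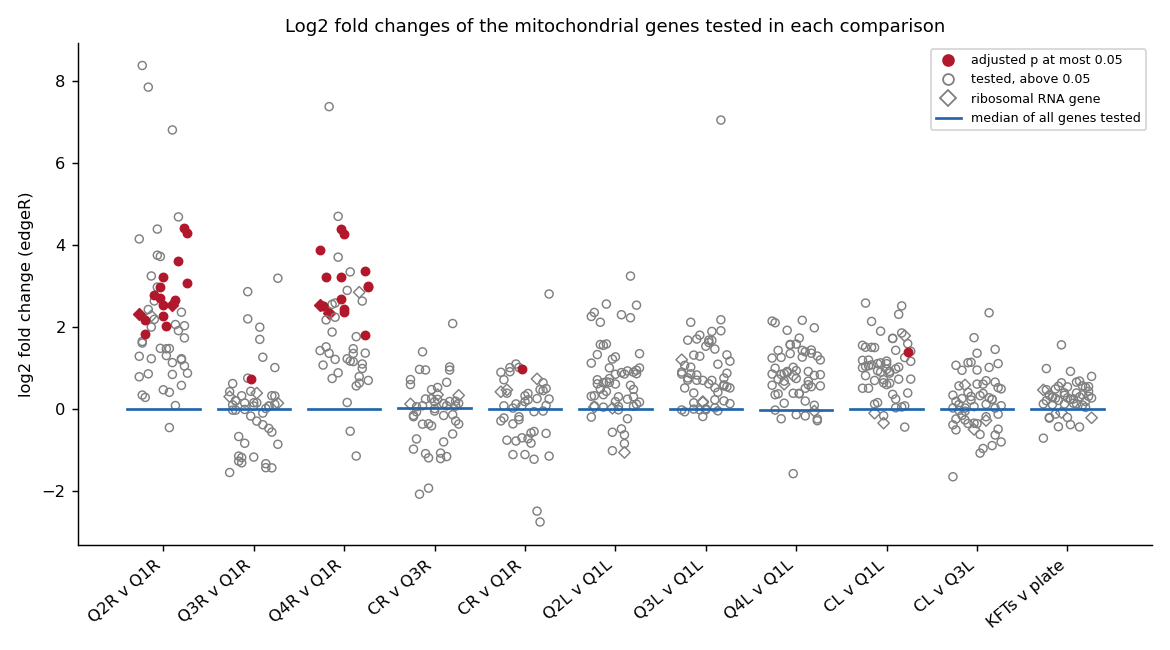
Log2 fold change (edgeR) of each mitochondrial gene tested in 11 comparisons, filled red where the adjusted p was at most 0.05, diamonds for ribosomal RNA genes, with a blue bar at the median of all genes tested. Red points are frequent in Q2R v Q1R and in Q4R v Q1R (16 each), and the blue bars lie close to 0 throughout.

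Part of the chromosome 2 region moved with these members. The 69 genes with identifiers from AT2G07660 to AT2G07820 summed to 76.2 to 82.7 CPM in Q1R, 139 to 183 CPM in Q2R, 75.7 to 86.7 CPM in Q3R and 134 to 207 CPM in Q4R, with means in Q2R and Q4R at 1.96 and 2.04 times that of Q1R. The 65 of them that lie inside the stretch matching the mitochondrial genome, a set cut after the values were seen, summed to 18.5 to 24.5 CPM in Q1R, 87.2 to 132 CPM in Q2R, 15.6 to 26.4 CPM in Q3R and 83.8 to 168 CPM in Q4R, with means in Q2R and Q4R at 4.81 and 5.48 times that of Q1R. The other 4 held most of the Q1R sum and had ratios of 0.91 and 0.78. AT2G07671, the copy of atp9 shown above, stood at 0.713, 2.07 and 1.69 CPM in Q1R, 17.5, 11.6 and 12.1 CPM in Q2R and 27.7, 15.1 and 14.3 CPM in Q4R. AT2G07727, the copy of cob, stood at 1.72, 0.626 and 0.507 CPM in Q1R, 5.14, 6.13 and 3.43 CPM in Q2R and 5.28, 2.14 and 2.68 CPM in Q4R. Both were higher in every Q2R library than in any Q1R library. ATP9 and ATP1 lie wholly inside the copied part in RefSeq, yet had 8572 and 3938 counts over the series. How these reads came to be uniquely placed was not tested. For members inside the copied part, nuclear and mitochondrial origin of the counted reads cannot be told apart here. RRN18, COX1, ATP4 and NAD4L have no exact chromosome 2 match of 150 bases, and RRN26 has one over 0.41% of its length. Each of these 5 genes rose in Q2R and in Q4R. Inexact or shorter matches were not searched, and the part of the nuclear copy was not tested for any member.

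Nuclear genes that run the mitochondrial genome were counted in the same comparisons. The list holds 24 genes, among them phage-type RNA polymerases, nucleases that trim and degrade mitochondrial RNA, DNA polymerases, and editing and splicing factors, and all 24 were tested. None differed in Q2R or in Q4R against Q1R, and DESeq2 called none there. At an unadjusted p under 0.05 there were 2 and 0 of the 24, beside 11.2% and 10.6% of all genes. In Q3R against Q1R, 2 rose, beside 2.75% of all genes. RH9, a mitochondrial RNA helicase also known as PMH1, rose by 0.73 on the log2 scale (SE 0.10, edgeR adjusted p = 0.00588). AT1G30680, a DNA primase and helicase of the organelles, rose by 0.66 (SE 0.14, edgeR adjusted p = 0.0254). In Q3R against Q2R, 6 rose and none fell. They included the editing factors MORF8 (0.59, SE 0.13, edgeR adjusted p = 0.0197) and MORF1 (0.61, SE 0.13, edgeR adjusted p = 0.0151) on the log2 scale. PNP2, the mitochondrial polynucleotide phosphorylase that degrades RNA, was another, at 0.73 (SE 0.21, edgeR adjusted p = 0.0483). The share of all genes that rose there was 6.61%. The members themselves were at their lower levels in Q3R, and a link to these nuclear genes was not tested. In Q3R against Q1R, 8 of the 24 were at an unadjusted p under 0.05, beside 21.3% of all genes. In Q3R against Q2R it was 12, beside 28.8%. DESeq2 called 3 of the 24 in Q3R against Q1R and 8 in Q3R against Q2R. No share of all genes is given for these DESeq2 counts, so they are not read against a background. In Q4R against Q3R edgeR called none of the 24 and DESeq2 called 2, again not read against a background. There 3 were at an unadjusted p under 0.05, beside 18.3% of all genes.

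In leaves, no member passed the test in Q2L, Q3L or Q4L against Q1L. At an unadjusted p under 0.05 there were 3 of 60, 7 of 56 and 7 of 58 members, beside 6.10%, 3.37% and 3.58% of all genes. DESeq2 called 1, 0 and 1, higher in each case, beside 0.114% of all genes that rose in Q2L and 0.148% in Q4L. Across all genes edgeR called 0 to 2 genes in these comparisons, 0.00979% at most. On every gene with a count, all 3 Q3L libraries were above all 3 Q1L libraries for 17 of 110 members and below them for none, against 2.83% of all genes above and 5.63% below. For Q2L it was 11 of 101 members above and 1 below, against 4.65% and 6.43% of all genes. For Q4L it was 10 of 112 above and none below, against 4.76% and 6.98%. The median log2 difference of these members was 0.49 in Q2L, 0.84 in Q3L and 0.91 in Q4L, beside -0.0047, 0.0099 and -0.0125 over all genes and 2.40 for members in Q2R against Q1R. These medians rest in part on genes with few counts.

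Q4L replicate 1 decided several of the Q4L values. Without it, both remaining Q4L libraries were above all 3 Q1L libraries for 42 of 112 members and below them for none, against 14.1% of all genes above and 10.3% below. The median log2 difference of the members was then 1.19, beside 0.0191 over all genes. At an unadjusted p under 0.05 there were 17 of 66 members. No share of all genes is given for that count, so it is not read against a background. After adjustment edgeR called none, and DESeq2 called 6, all higher, beside 0.312% of all genes.

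Values of the members followed in roots are given for leaves as well. RRN26 was at 356, 253 and 361 CPM in Q1L, 295, 324 and 350 CPM in Q2L, 264, 270 and 478 CPM in Q3L and 444, 613 and 555 CPM in Q4L. Q4L alone lay above Q1L in every library, at a log2 difference of 0.81 (SE 0.20, edgeR adjusted p = 0.955), or 0.86 (SE 0.19, edgeR adjusted p = 0.602) without Q4L replicate 1. COX1 was at 6.67, 6.77 and 5.13 CPM in Q1L, at 7.13, 7.93 and 10.4 CPM in Q2L and at 9.05, 9.35 and 13.1 CPM in Q3L. Its leaf values reached at most 15.8 CPM, in Q4L, under every Q2R and Q4R root value.

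The difference between the root and the leaf change was tested directly. For Q2 against Q1, 3 of 66 members rose more in roots than in leaves, beside 0.0977% of all genes. RRN26 had a log2 difference between the changes of 2.34 (SE 0.25, edgeR adjusted p = 0.0125), ORF107A of 2.67 (SE 0.36, edgeR adjusted p = 0.0207) and COX1 of 2.53 (SE 0.40, edgeR adjusted p = 0.0485). RRN26 was called in all 12 fits without a library, while the count was 1 without Q1L replicate 3, Q1R replicate 1, Q1R replicate 2, Q2L replicate 2, Q2L replicate 3 or Q2R replicate 1. For Q4 against Q1 none of 67 members passed, with or without Q4L replicate 1, with 12 at an unadjusted p under 0.05 (17.9%, beside 6.23% of all genes) and 4 called higher by DESeq2, beside 0.00889% of all genes lower by edgeR and 0.241% higher by DESeq2, so a difference between tissues is not shown there by edgeR. Without Q4L replicate 1, DESeq2 called 6 higher, beside 0.889% of all genes, and 1 lower. RRN26 had a difference of 1.71 (SE 0.37, edgeR adjusted p = 0.363) and ATP9 of 3.54 (SE 0.97, edgeR adjusted p = 0.626), and without that library 1.65 (SE 0.38, edgeR adjusted p = 0.195) and 3.64 (SE 1.00, edgeR adjusted p = 0.297). For Q3 against Q1 none of 63 passed, with 3 at an unadjusted p under 0.05 (4.76%, beside 10.6% of all genes) and 2 called lower by DESeq2, beside 0.0089% of all genes lower by edgeR and 0.654% by DESeq2.

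Roots and leaves also differed apart from time. Over Q1 to Q4, 11 of 74 members were higher in roots and 23 lower, while 36.6% of all genes were higher and 35.0% lower, so these counts are not above the background. Both counts were the same without Q4L replicate 1. The average over Q1 to Q4 includes the high Q2R and Q4R roots, and with Q1 and Q3 alone (a choice made after the values were seen) 3 of 63 members were higher, RRN26, ORF107A and RRN18, and 24 were lower, beside 33.2% and 31.2% of all genes. RRN26 was higher in roots by 3.03 on the log2 scale over Q1 to Q4 (SE 0.14, edgeR adjusted p = 4.2e-14) and by 2.05 with Q1 and Q3 alone (SE 0.17, edgeR adjusted p = 4.4e-07). COX2 was higher in roots by 1.25 over Q1 to Q4 (SE 0.32, edgeR adjusted p = 0.00139) but at -0.30 (SE 0.33, edgeR adjusted p = 0.45) with Q1 and Q3 alone. ATP9 changed from 1.13 to -0.71 (SE 0.59, edgeR adjusted p = 0.317) and ATP1 from 1.22 to -0.07 (SE 0.52, edgeR adjusted p = 0.912). None of these genes passed with Q1 and Q3 alone, so a lower level in roots is not shown. RRN18 was higher by 1.81 (SE 0.16, edgeR adjusted p = 1.3e-09) over Q1 to Q4, while RRN5 was at 0.02 (SE 0.59, edgeR adjusted p = 0.993) and, with Q1 and Q3 alone, lower in roots at -1.75 (SE 0.60, edgeR adjusted p = 0.0221).

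The 23 members lower in roots were 14 of 38 ORFs tested, 6 of 29 genes with a role and 3 of 4 transfer RNA genes, so the ORFs were near the 35.0% of all genes. The greatest differences were in members of low level, such as ORF107D at -4.78 (SE 1.02, edgeR adjusted p = 0.000458) and ATMG09980, a transfer RNA gene, at -4.25 (SE 0.79, edgeR adjusted p = 6.6e-05) on the log2 scale. ORF111D was at 0.0198, 2.72 and 1.17 CPM in Q1R and at 9.28, 4.84 and 5.24 CPM in Q1L, a log2 difference of -2.56 over Q1 to Q4 (SE 0.46, edgeR adjusted p = 4.5e-05). RPS3 was at 1.74, 5.34 and 3.22 CPM in Q1R and at 11.5, 9.43 and 9.17 CPM in Q1L (log2 difference -1.42, SE 0.20, edgeR adjusted p = 1.9e-06). NAD9, RPL16 and CCMB were lower in roots by log2 values of -1.05 (SE 0.28, edgeR adjusted p = 0.00247), -1.30 (SE 0.28, edgeR adjusted p = 0.000259) and -1.13 (SE 0.29, edgeR adjusted p = 0.00139). CCMFC, wholly in the chromosome 2 copy, was at -2.30 (SE 0.78, edgeR adjusted p = 0.0120). Of the 8 protein genes with under 50% in the copy, RPS3, NAD9, RPL16 and CCMB were lower in roots over Q1 to Q4, and COX1, COX2, ATP4 and NAD4L were higher. With Q1 and Q3 alone, RPS3, NAD9, RPL16 and CCMB stayed lower. COX1, COX2, ATP4 and NAD4L were then at -0.38, -0.30, -0.0056 and -0.16 on the log2 scale, and none passed. Over Q1 to Q4, ATP4 and NAD4L were not called in every fit that left out a library. In leaves ribosomal RNA held 66.7% to 82.3% of mitochondrial counts and in all root libraries 88.6% to 93.6%. The ratio of RRN26 to RRN18 was 0.984 to 1.73 in leaves (to 1.62 without Q4L replicate 1) and 2.1 to 5.20 in time-course roots, ranges that do not overlap.

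Transfer RNA counts were also higher in leaves, at 1.57 to 9.97 CPM for the 18 genes together against 0.289 to 1.45 CPM in time-course roots. TRNN, the asparagine transfer RNA, had the most counts of the 18, 1819 over the series, and was lower in roots by a log2 value of -3.00 (SE 0.81, edgeR adjusted p = 0.00247). With so few counts per library, single transfer RNA genes could seldom be tested. Matches of transfer RNA genes and ORFs to the plastid genome were not searched. Over Q1 to Q4 the root mean of plastid genes other than ribosomal RNA was 0.0437 times the leaf mean. Whether plastid reads entered these counts was not tested.

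**Figure D5:**
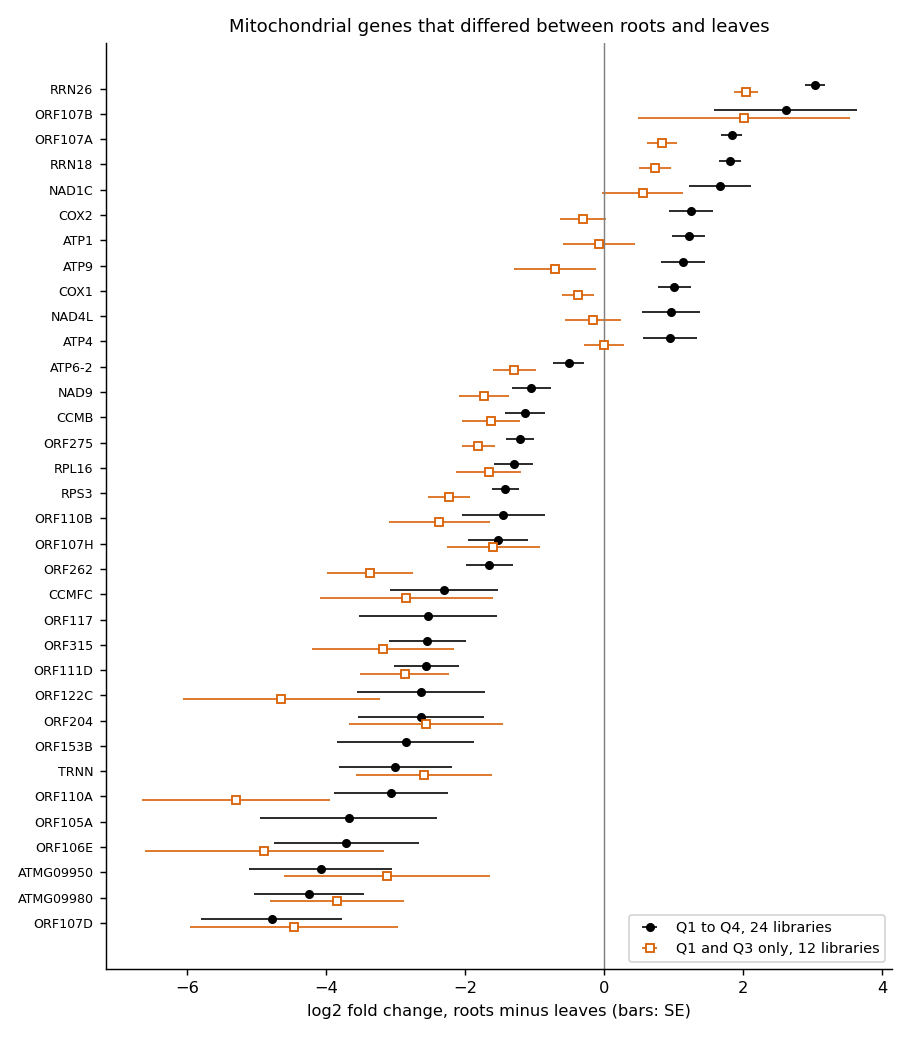
Log2 fold change, roots minus leaves, with SE bars, of the 34 mitochondrial genes that passed in the comparison over Q1 to Q4 (black, 24 libraries) and the same genes with Q1 and Q3 alone (orange squares, 12 libraries, where tested). RRN26 stays to the right in both, at 3.03 and 2.05, while COX2, ATP1 and ATP9 move from the right of 0 to its left, where none of them passed.

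The clinostat groups asked whether turning changed transcripts. Against Q3R, which spent the same time in a KFT, none of 49 members differed in clinostat roots, with none at an unadjusted p under 0.05 (beside 13.9% of all genes), none called by DESeq2, and 0.00475% of all genes higher. RRN26 was at 2029, 2153 and 2066 CPM there, a log2 difference of 0.12 from Q3R (SE 0.13, edgeR adjusted p = 0.717). COX1 was at 8.17, 6.27 and 10.5 CPM, a log2 difference of 0.08 (SE 0.26, edgeR adjusted p = 0.921). Both genes lay within or close to the Q3R values and far under Q2R and Q4R. Against Q1R, ORF107A was higher at 158, 231 and 226 CPM (log2 fold change 0.97, SE 0.20, edgeR adjusted p = 0.0399), 1 of 48 members beside 1.16% of all genes that rose and 0.441% that fell, and no member was called without Q1R replicate 1, 2 or 3 or without clinostat replicate 2 or 3, while 2 were called without clinostat replicate 1.

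In clinostat leaves none of 59 members differed from Q3L, with 3 at an unadjusted p under 0.05 (5.08%, beside 7.15% of all genes) and none called by DESeq2. Against Q1L, RPS3 rose from 11.5, 9.43 and 9.17 CPM to 25.0, 28.4 and 23.1 CPM (log2 fold change 1.39, SE 0.17, edgeR adjusted p = 0.0353). It was the only 1 of 58 members, and also the only gene of all tested, that rose there, 0.00487% of them, while 0.0633% of all genes fell. The call was lost without any single clinostat leaf library or without Q1L replicate 3. RPS3 was already at 15.0, 14.8 and 21.7 CPM in Q3L and at 15.0, 21.2 and 21.1 CPM in Q2L, above every Q1L library. The difference between the root and the leaf change, clinostat against Q3, passed for none of 64 members, beside 0.0267% of all genes higher and 0.00445% lower, with 3 at an unadjusted p under 0.05 (4.69%, beside 12.3% of all genes) and none called by DESeq2.

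The set of 4 KFTs and a plate asked what enclosure itself did to roots. None of 50 members differed between the KFTs and the plate, beside 0.469% of all genes higher and 0.378% lower, with 6 members at an unadjusted p under 0.05 (12%, beside 9.09% of all genes) and none called by DESeq2. RRN26 ranged from 1982 to 4445 CPM with a median of 2601 over the 12 KFT libraries, and stood at 1623, 2761 and 1855 CPM on the plate. Its log2 difference was 0.46 (SE 0.20, edgeR adjusted p = 0.498), and that of COX1 was 0.33 (SE 0.16, edgeR adjusted p = 0.572). For COX1 the KFT libraries ranged from 7.15 to 18.1 CPM with a median of 10.9, and the plate stood at 6.31, 9.91 and 9.64 CPM. The KFT and plate libraries overlapped in both genes. The highest KFT library for COX1, at 18.1 CPM, and the highest for ATP9, at 1.24 CPM, were under every Q2R and Q4R library, and the highest sum of ribosomal RNA in that set was under the lowest in Q2R and Q4R.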

How the data were processed

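Reads of 45 poly(A)-selected libraries were, per the labels and the study's methods, trimmed with cutadapt, aligned with STAR to TAIR10, freed of duplicates and counted per gene with HTSeq from uniquely mapped reads. The deposited count columns hold raw counts per gene, and only these were used. The deposited signal columns (counts divided by DESeq2 size factors) were not used. The log2 fold change and p-value columns deposited by the authors hold their own comparisons and were neither used nor printed.

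CPM was computed over library totals. Each comparison was fitted with edgeR 4.0.16 (R 4.3.3) on all genes after filterByExpr and TMM, tested by quasi-likelihood, and adjusted by Benjamini-Hochberg over every gene tested, and SE is the fold change over the square root of F. Scripts were tested on simulated data. Alternatives were DESeq2 1.42.0, RLE factors, no filter, organelle genes left out, a replicate block and each library left out. Exact matches between RefSeq chromosomes were searched at 150 bases or more.

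The members and gene lists were chosen with earlier results of these data known. The rule for named members took up to 8 per direction with the greatest fold among those that passed and a fixed set (RRN26, RRN18, NAD4, NAD9, COB, COX1, COX3, ATP1, ATP9, CCMFC, RPL16, RPS4, MATR and MTTB). Members it took at low counts in the comparison of roots and leaves are given by examples, and a fixed member without a value in a comparison was not tested there or did not pass. Other members named were chosen after their values were seen.

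Replicate numbers were not taken to pair samples: deviations of same-numbered samples correlated at a mean of 0.0001 in roots, 0.002 in leaves, 0.0191 between root and leaf and 0.0821 in the KFT set, where 13 of 30 pairs were over 0.1 and the highest was 0.558. The closest replicates differed by more than sampling noise, so none was merged.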

Additional observations from a re-analysis of the deposited data

Results flagged for a closer look

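The log2 change from Q1 to Q2 in roots minus that in leaves passed the test for 3 of 66 mitochondrial genes, beside 0.0977% of all genes. It was 2.34 for RRN26, 2.67 for ORF107A and 2.53 for COX1 (edgeR adjusted p = 0.0125, 0.0207 and 0.0485, n = 3 libraries in each of 4 groups). Only RRN26 was called in all 12 fits that left out a library. All 3 Q2R libraries were above all 3 Q1R libraries for each gene, which describes the root part of the difference only.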

How the results depend on the processing

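DESeq2 moved the number of members called to 26 for Q2R against Q1R, 27 for Q4R against Q3R, 1 for Q2L and 1 for Q4L against Q1L. It gave 2 for clinostat roots against Q1R, and 9, 2 and 4 for the difference of root and leaf change at Q2, Q3 and Q4. Shares of all genes stand with the comparisons above. None is given for the 2 in clinostat roots or the 9 at Q2, so these are not read against a background. Without Q4L replicate 1 (added after seeing the data) DESeq2 gave 6 for Q4L against Q1L and 7 for the difference at Q4. With Q1 and Q3 only, added after seeing the data, the members higher in roots numbered 3. COX2, ATP9 and ATP1 were then at -0.299, -0.706 and -0.0731 on the log2 scale, and none of them passed. The replicate block gave 11 members for Q2R against Q1R, 16 for Q4R against Q1R, 25 for Q3R against Q2R, 18 for Q4R against Q3R and 1 for the difference at Q2, and its numbers do not pair samples. No share of all genes is given for the replicate block or for the fits that left out a library. A TMM-normalized total moved the mean summed CPM of ribosomal RNA to 559 in clinostat leaves, 2566 in clinostat roots, 672 in Q2L and 1101 in Q4L, and that of protein-coding members to 266 in clinostat leaves. Leaving out 1 library gave 9 to 16 members for Q2R against Q1R, 0 to 2 for Q3R against Q1R, 11 to 16 for Q4R against Q1R, 17 to 31 for Q3R against Q2R and 14 to 19 for Q4R against Q3R. It gave 0 to 2 for clinostat roots and 0 to 1 for clinostat leaves against Q1, 8 to 11 higher and 20 to 25 lower in roots than leaves, and 1 to 4 for the difference at Q2, and 0 in each of the other comparisons. Of 1347 values of named members, 1260 kept their direction and side of the threshold, 73 no longer passed, 11 newly passed and 3 reversed. The cause was not tested. Members with few counts limit every comparison, since a gene under the count minimum was not tested.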
